A study of Rattus norvegicus with 24 samples.

Results

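The miR-99/100 and miR-125 families were followed across all arrays of the study through their 5p strands. The members were taken by name from the array's own list: rno-miR-99a-5p, rno-miR-99b-5p, rno-miR-100-5p, rno-miR-125a-5p and rno-miR-125b-5p, which are 5 of the 758 miRs on the array. The prefix rno, for rat, is left out from here on.

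The cells were INS1, a rat insulinoma line that secretes insulin and is used as a model of the β-cell, and they were incubated for 48 h before treatment. IL-1β and IFN-γ, cytokines that damage β-cells, were combined with Givinostat, an inhibitor of lysine deacetylases, to ask which miRs respond to the cytokines and to the drug. RNA from each sample was labelled with a single dye and read on 1 of 24 Agilent rat miRNA arrays. There were 8 groups of 3 arrays, on 4 slides. The control groups 6h_Ctrl and 24h_Ctrl received neither agent. The groups 6h_Cyt and 24h_Cyt were given the cytokines, with IL-1β at 150 pg/ml and IFN-γ at 0.1 ng/ml. The groups 6h_Giv_Ctrl and 24h_Giv_Ctrl received 125 nM Givinostat alone, and 6h_Giv_Cyt and 24h_Giv_Cyt received it 1 h before the same cytokines. The methods speak of replicates and the deposited design of technical replicates, so all p-values here measure the spread between arrays, which may be technical.

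The identity of the cells was checked with miRs known for particular cell types. All 5 miRs of the β-cell line list (miR-375-3p, miR-7a-5p, miR-182, miR-183-5p and miR-96-5p) were well above background on all 24 arrays. Their summed background-subtracted intensity ranged from 2561 to 9367 between arrays (median 3963), and miR-7a-5p was the brightest of them. Of the miRs of blood cells 0 of 5, of stroma 0 of 3 and of liver 0 of 1 were well above background on any array. Their median summed intensities were 14.5, 3.36 and 8.54, with miR-223-3p, miR-199a-3p and miR-122-5p the brightest. The endothelial miR-126a-3p was well above background on 2 arrays (median intensity 7.45). Of the muscle miRs, miR-206-3p was well above background on all 24 arrays, miR-1-3p on 3 and miR-133a-3p on 0 (median sum 84.6). The part that any of these markers may have in the values of the members was not tested.

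A miR silences messenger RNAs that pair with its seed, bases 2 to 8 from its 5′ end, so miRs with the same seed share many potential targets. The miR-99/100 family belongs to the old miR-10 family and the miR-125 family is the vertebrate form of lin-4. Both are transcribed together with let-7 in clusters that were duplicated during vertebrate evolution, and they are known for roles in development, growth control and inflammatory signalling.

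Mature sequences from RefSeq (GRCr8) were found for 4 of the 5 members. They are shown 5′ to 3′ with the seed in capitals, because the seed divides them into 2 groups.
miR-99b-5p: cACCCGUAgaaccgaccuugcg
miR-100-5p: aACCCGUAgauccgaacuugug
miR-125a-5p: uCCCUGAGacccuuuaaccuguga
miR-125b-5p: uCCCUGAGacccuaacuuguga

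The members miR-99b-5p and miR-100-5p shared the seed ACCCGUA and were identical at 18 aligned bases, with 4 mismatches. The pair miR-125a-5p and miR-125b-5p shared the seed CCCUGAG and were identical at 21 aligned bases, with 1 mismatch and 2 gaps. Among the other miRs of the array, miR-351-5p carried the miR-125 seed and had 0 spots marked as well above background on any array. The relatives miR-10a-5p and miR-10b-5p, whose seeds differ from that of miR-100-5p, had at most 0 and 1 such spots.

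In the GRCr8 annotation the hairpins lie in clusters on 3 chromosomes. On chromosome 1, Mir99b, Mirlet7e and Mir125a lie inside Spaca6. On chromosome 8, Mir100, Mirlet7a-2 and Mir125b1 lie inside the transcript Mir100hgl. On chromosome 11, Mir99a, Mirlet7c1 and Mir125b2 lie inside the uncharacterized LOC103693508. The array cannot tell from which of its hairpins, Mir125b1 or Mir125b2, a molecule of miR-125b-5p came. Nor can it tell whether let-7a-5p and let-7c-5p came from the hairpins of these clusters or from others. The array's probe map (rn4) places the probes of miR-99b-5p on chromosome 1 from 56486982 to 56486996, those of miR-100-5p on chromosome 8 from 44518686 to 44518703 and those of miR-99a-5p on chromosome 11 from 16397559 to 16397577. It gives no position for the probes of miR-125a-5p and miR-125b-5p.

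The members fell into 2 sets by detection. The scanner software marks each spot that is well above background, and a miR with 8 or more of its 16 spots so marked counted as well above background on that array. By this rule miR-99b-5p, miR-125a-5p and miR-125b-5p were well above background on all 24 arrays, as were 117 of the 758 miRs, whereas 534 miRs were so on 0 arrays. For miR-99a-5p and miR-100-5p, 0 of the 16 spots carried the mark on any array. Their log2 signals lay between 5.43 and 5.55 and between 5.39 and 5.52, and they are described as not well above background, with no fold. The 6 other strands of these hairpins on the array, all 3p, had fewer than 8 spots marked on every array, with at most 6 for miR-125a-3p, 5 for miR-99b-3p and 1 for miR-99a-3p.

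Each member was read by 2 probe sequences of 8 spots each that differ in length by 1 base. For miR-125b-5p these were tcacaagttagggtct (16 bases) and tcacaagttagggtctc (17 bases). With the longer probe all 8 spots were well above background on all 24 arrays. With the shorter probe this held on 9 arrays, and on 2 arrays 0 of the spots were, so there its detection rested on the longer probe. Both probes of miR-125a-5p and of miR-99b-5p had all 8 spots well above background on every array. In bulk RNA, fewer cells and less of a miR per cell cannot be told apart.

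The values that follow are log2 signals after quantile normalization, averaged over the 16 spots, and they are compared between groups within a miR only. Among the members of the miR-125 family, miR-125b-5p read 6.95, 6.87 and 6.83 in 6h_Ctrl (6.89 ± 0.062, mean ± SD, n = 3) and 6.99, 7.05 and 7.01 in 6h_Cyt (7.02 ± 0.030). It read 6.98, 6.88 and 6.76 in 6h_Giv_Ctrl (6.88 ± 0.11) and 6.91, 6.93 and 6.74 in 6h_Giv_Cyt (6.86 ± 0.11). All 6h_Cyt arrays thus lay above all other arrays at 6 h. At 24 h the signals were 6.89, 6.91 and 6.95 in 24h_Ctrl (6.92 ± 0.034) and 7.12, 7.12 and 7.03 in 24h_Cyt (7.09 ± 0.053). With Givinostat they were 6.92, 7.05 and 7.10 in 24h_Giv_Ctrl (7.02 ± 0.092) and 7.07, 7.11 and 6.95 in 24h_Giv_Cyt (7.05 ± 0.081). The 24h_Ctrl arrays lay below the 24h_Cyt arrays, and the groups with Givinostat overlapped each other. From the lowest to the highest mean the order was 6h_Giv_Cyt, 6h_Giv_Ctrl, 6h_Ctrl, 24h_Ctrl, 6h_Cyt, 24h_Giv_Ctrl, 24h_Giv_Cyt and 24h_Cyt. Neighbours in this order overlapped, except 24h_Ctrl and 6h_Cyt.

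The other member of that family, miR-125a-5p, read 8.07, 8.27 and 8.24 in 6h_Ctrl (8.20 ± 0.10, SD, n = 3) and 8.30, 8.20 and 8.39 in 6h_Cyt (8.30 ± 0.094). It read 8.18, 7.82 and 7.88 in 6h_Giv_Ctrl (7.96 ± 0.19) and 8.27, 8.20 and 7.82 in 6h_Giv_Cyt (8.10 ± 0.24). Replicate 1 of 6h_Giv_Ctrl was above the rest of its group and replicate 3 of 6h_Giv_Cyt below the rest of its own. At 24 h the signals were 8.41, 8.14 and 8.31 in 24h_Ctrl (8.29 ± 0.14) and 8.25, 8.18 and 8.26 in 24h_Cyt (8.23 ± 0.046). With Givinostat they were 8.33, 8.26 and 8.36 in 24h_Giv_Ctrl (8.32 ± 0.053) and 8.05, 8.35 and 8.28 in 24h_Giv_Cyt (8.22 ± 0.16). All 4 groups at 24 h overlapped. The order of the means was 6h_Giv_Ctrl, 6h_Giv_Cyt, 6h_Ctrl, 24h_Giv_Cyt, 24h_Cyt, 24h_Ctrl, 6h_Cyt and 24h_Giv_Ctrl, and every group overlapped its neighbour in it.

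In the miR-99/100 family, miR-99b-5p read 7.34, 7.64 and 7.69 in 6h_Ctrl (7.56 ± 0.19, SD, n = 3) and 7.66, 7.46 and 7.67 in 6h_Cyt (7.60 ± 0.12). It read 7.70, 7.26 and 7.17 in 6h_Giv_Ctrl (7.38 ± 0.28) and 7.56, 7.37 and 7.0 in 6h_Giv_Cyt (7.31 ± 0.28). The same arrays as for miR-125a-5p stood apart in both Givinostat groups at 6 h. At 24 h the signals were 7.67, 7.42 and 7.57 in 24h_Ctrl (7.55 ± 0.13) and 7.63, 7.44 and 7.54 in 24h_Cyt (7.54 ± 0.093). With Givinostat they were 7.50, 7.46 and 7.67 in 24h_Giv_Ctrl (7.54 ± 0.11) and 7.21, 7.53 and 7.41 in 24h_Giv_Cyt (7.38 ± 0.16). All 4 groups at 24 h overlapped again. The order of the means was 6h_Giv_Cyt, 6h_Giv_Ctrl, 24h_Giv_Cyt, 24h_Cyt, 24h_Giv_Ctrl, 24h_Ctrl, 6h_Ctrl and 6h_Cyt, and every group overlapped its neighbour.

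**Figure D1:**
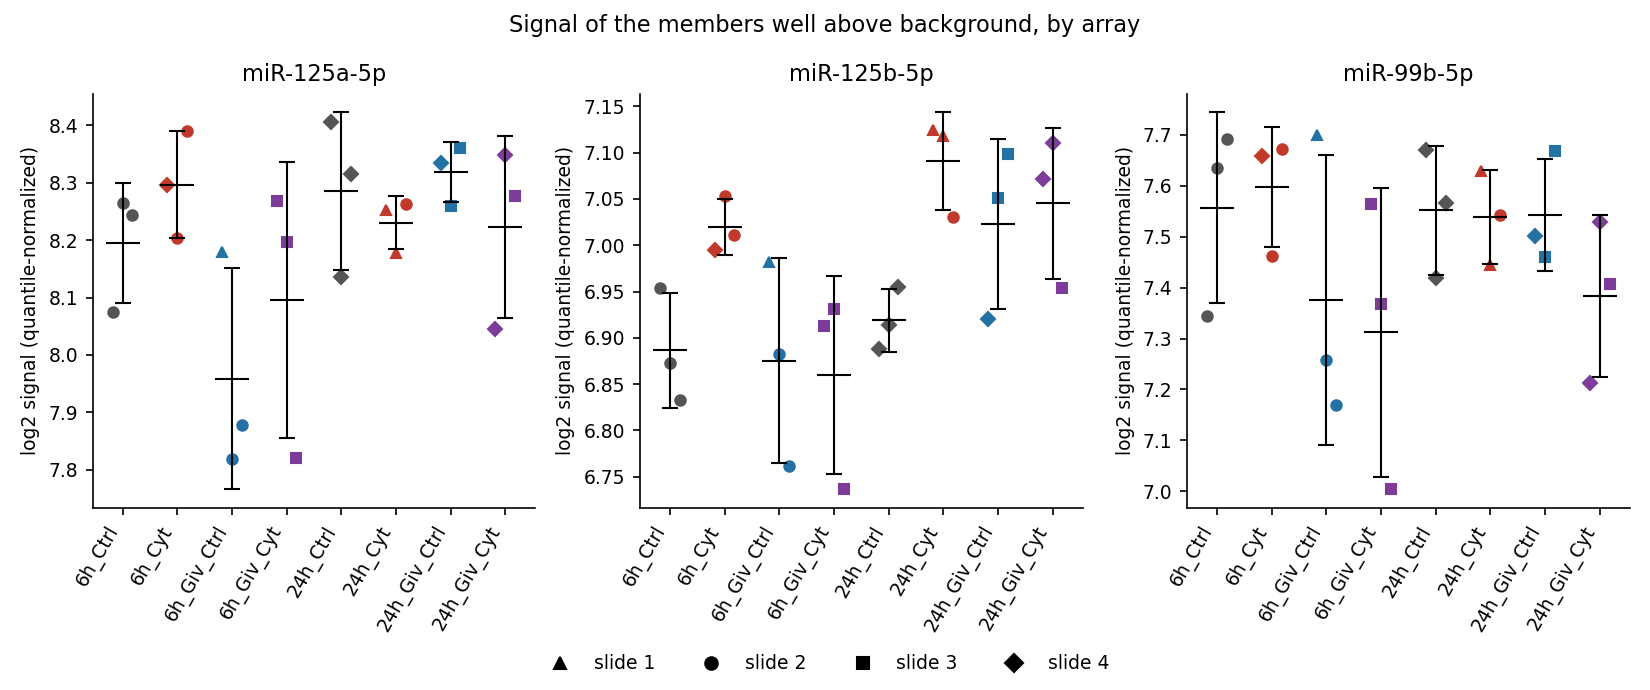
Quantile-normalized log2 signal (vertical axis) of miR-125a-5p, miR-125b-5p and miR-99b-5p on each array, by group (horizontal axis); each symbol is an array, its shape the slide, and the bars are mean ± SD of 3 arrays. The 24h_Cyt arrays of miR-125b-5p, at 7.03 to 7.12, all lie above those of 24h_Ctrl, at 6.89 to 6.95, whereas the groups of miR-99b-5p overlap.

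The arrays that stood apart did so over all miRs. Replicate 1 of 6h_Giv_Ctrl correlated with the others of its group at r = 0.958 and 0.960 across miRs, against 0.998 between those others, and replicate 3 of 6h_Giv_Cyt at 0.970 and 0.978, against 0.997. On the former array miR-125a-5p was 0.33, miR-99b-5p 0.49 and miR-125b-5p 0.16 above the mean of the others of its group on the log2 scale. On the latter they were -0.41, -0.46 and -0.19 from it. The former array lay on slide 1 and had a 75th percentile of intensity of 682, against 401 and 311 for the others of its group. The latter shared its slide with the rest of its group, and its intensity was 317, against 386 and 374. What set these arrays apart was not tested.

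The group means of miR-125a-5p spanned 0.36 on the log2 scale, those of miR-99b-5p 0.28 and those of miR-125b-5p 0.23. The median span of the 117 detected miRs was 0.31, so the members varied between groups about as much as other detected miRs. The median SD within a group was 0.12 for miR-125a-5p, 0.14 for miR-99b-5p and 0.071 for miR-125b-5p.

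Differences between groups were tested with limma over all 24 arrays, with a Benjamini-Hochberg adjustment over the 758 miRs of each comparison. A miR was called when its absolute log2FC was above 0.14 (1.1-fold) and its adjusted p below 0.05. In the 12 pairwise comparisons 0 of the 36 tests of the 3 detected members were called, 7 had an unadjusted p below 0.05, and in 5 the arrays of the groups did not overlap. How often the groups of other miRs did not overlap was not counted, so the 5 describe these arrays and set no member apart. The smallest adjusted p was 0.100. The pooled correlation over spots, which is the fit of the study's methods, called 0 members as well in each comparison and term.

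The comparison 24h_Cyt vs 24h_Ctrl asks which miRs respond to a day of cytokines. Of the members, miR-125b-5p had a log2FC in it of 0.17 (SE 0.061, 95% interval 0.045 to 0.30), and its 24h_Cyt arrays were higher than its 24h_Ctrl arrays in 3 of 3. By limma its adjusted p was 0.100, which missed the threshold. The log2FC was 0.13 with the shorter and 0.22 with the longer probe. For miR-125a-5p the log2FC was -0.055 (95% interval -0.29 to 0.18) and for miR-99b-5p -0.013 (-0.32 to 0.29), with overlapping arrays in both. Without normalization between arrays both were positive, 0.98 and 0.95, where the median of the detected miRs was 0.83.

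In that comparison limma called 0 of 5 members, while 4.09% of the 758 miRs were called. An unadjusted p below 0.05 was reached by 2 of 5 members (miR-125b-5p and miR-100-5p) and by 180 miRs. The pooled correlation over spots called 48 miRs, 0 of them members. The median log2FC was -0.013 over the detected members, -0.055 over the 117 detected miRs and -0.011 over all 758. The members miR-99a-5p and miR-100-5p were not well above background.

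The outcome for miR-125b-5p depended on the processing. The member was called when only the arrays of both groups entered the fit (adjusted p = 0.0310) and when the arrays that stood apart at 6 h were left out (log2FC 0.17, adjusted p = 0.0323), a setting chosen after seeing the data. It was also called without normalization between arrays (log2FC 0.91, adjusted p = 0.000101), where 173 of all miRs were called. Over all alternatives its adjusted p ranged from 0.000101 to 1, and leaving out any single array kept it between 0.0619 and 0.275. The comparison shared no slide: all 24h_Ctrl arrays lay on slide 4 and those of 24h_Cyt on slides 1 and 2. With slide as a block in the fit the log2FC was 0.051, and without slide 1, which leaves 1 array of 24h_Cyt that is assumed to vary like the other groups, it was 0.11. The arrays of 24h_Cyt were also brighter than those of 24h_Ctrl, with a 75th percentile of intensity of 596 to 1003 against 271 to 347. With array brightness as a covariate, chosen after seeing the data, the log2FC was -0.079. The cytokines, the slide and the brightness cannot be told apart here.

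**Figure D2:**
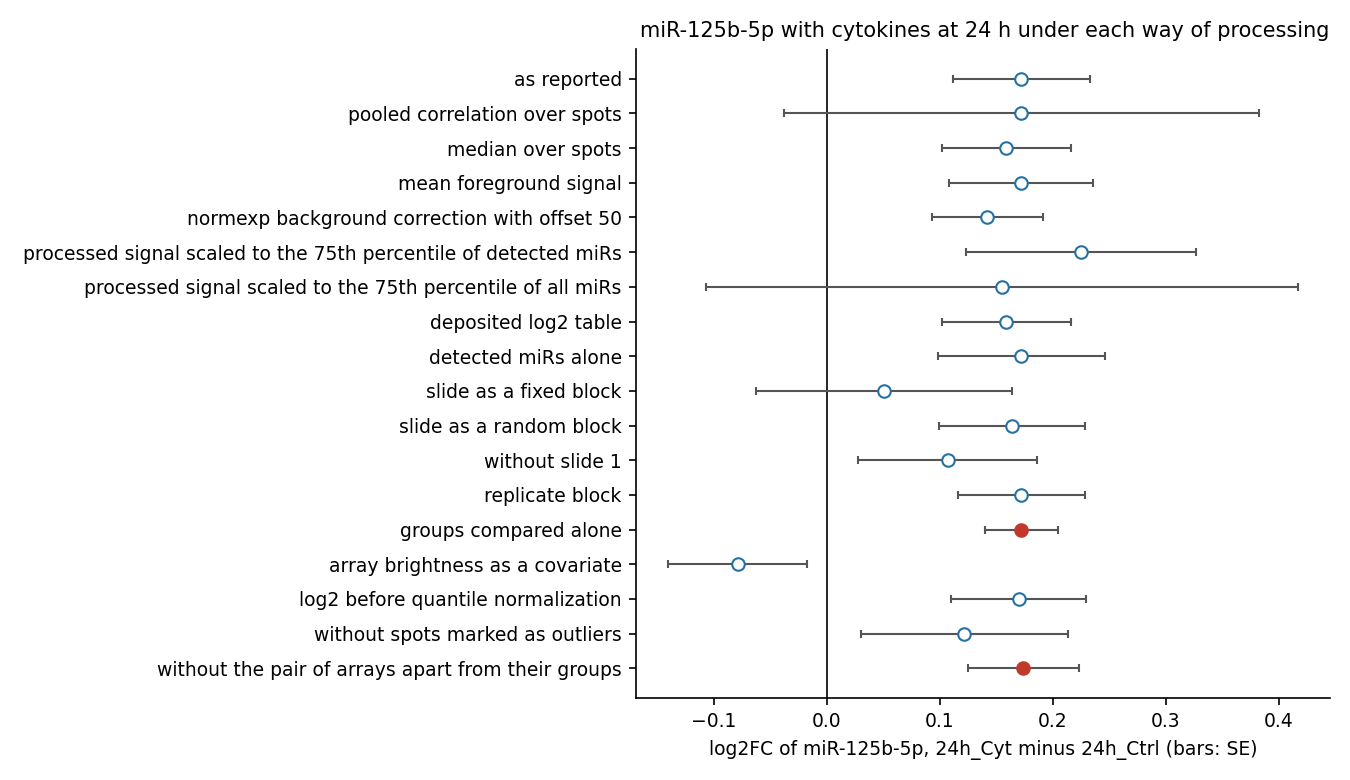
log2FC of miR-125b-5p in 24h_Cyt vs 24h_Ctrl (horizontal axis, bars are SE) as reported and under each alternative other than no normalization (log2FC 0.91); filled points passed both thresholds. The values lie between 0.051 and 0.22 except with array brightness as a covariate, where the value is -0.079.

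With Givinostat present, the comparison 24h_Giv_Cyt vs 24h_Giv_Ctrl gave a value near 0 for miR-125b-5p. Its log2FC was 0.022 (SE 0.061, 95% interval -0.11 to 0.15), and it was negative in 5 of the alternatives, scaling to all miRs among them (-0.37). The median over spots and the authors' deposited log2 table, which hold the same values, both count among these. Without normalization 323 of all miRs were called, and the median of the detected miRs was 0.43. There miR-125b-5p was 0.44 and called (adjusted p = 0.0357, and up to 0.977 under other alternatives). The shorter and longer probe gave -0.0035 and 0.048. On slide 3 the difference was -0.12 (1 array against 2) and on slide 4 it was 0.17 (2 arrays against 1). For miR-125a-5p the log2FC was -0.095 (95% interval -0.33 to 0.14), with -0.033 on slide 3 and -0.14 on slide 4. For miR-99b-5p it was -0.16 (-0.46 to 0.14), with -0.16 and -0.13 on these slides. With slide as a block the log2FCs were 0.025, -0.085 and -0.14. With an array left out miR-125a-5p lay between -0.16 and -0.0059 and miR-99b-5p between -0.23 and -0.076. All 3 members had overlapping groups. Without normalization between arrays the values of miR-125a-5p and miR-99b-5p turned to 0.36 and 0.33. Calls by limma came to 0 of 5 members and 0.528% of all miRs, while 0 members and 93 miRs reached an unadjusted p below 0.05.

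Whether Givinostat altered the cytokine effect at 24 h was tested as the difference between both cytokine effects. For miR-125b-5p this term was -0.15 (SE 0.086, 95% interval -0.33 to 0.030, adjusted p = 0.871 by limma). It was -0.15 (-0.58 to 0.28) for miR-99b-5p and -0.040 (-0.37 to 0.29) for miR-125a-5p. With slide as a block these were -0.026, -0.062 and 0.065, so the sign of miR-125a-5p turned. In limma's test 0 of 5 members passed and 0% of all miRs, with 0 members and 39 miRs at an unadjusted p below 0.05. The term at 6 h was -0.15 (-0.33 to 0.032) for miR-125b-5p and -0.090 with slide as a block, with 0 of 5 members called, 0% of all miRs called, and 0 members and 12 miRs at an unadjusted p below 0.05. These intervals leave room for differences as large as the log2FC in 24h_Cyt vs 24h_Ctrl.

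Averaged over the presence and absence of Givinostat, the cytokine effect at 24 h was 0.097 for miR-125b-5p (SE 0.043, 95% interval 0.0071 to 0.19, adjusted p = 0.139 by limma). It was -0.075 (95% interval -0.24 to 0.091) for miR-125a-5p and -0.086 (-0.30 to 0.13) for miR-99b-5p. With slide as a block the values were 0.038, -0.12 and -0.11. Without normalization all 3 were called, at 0.67, 0.67 and 0.64, so the sign of miR-125a-5p and miR-99b-5p turned, where the median of the detected miRs was 0.66. In that setting 321 of all miRs were called. In the reported fit 0 of 5 members were called, against 4.35% of all miRs, and 3 of 5 members and 217 miRs had an unadjusted p below 0.05. The 3 were miR-125b-5p and, not well above background, miR-99a-5p and miR-100-5p, and miR-100-5p had an adjusted p of 0.0460 with a difference of -0.054 in measured signal, which is below the log2FC threshold. This miR had 0 marked spots on every array, so no fold is read from it.

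After 6 h of cytokines the groups of miR-125b-5p again did not overlap. In 6h_Cyt vs 6h_Ctrl its log2FC was 0.13 (SE 0.061, 95% interval 0.0056 to 0.26, adjusted p = 0.999 by limma), with 3 of 3 cytokine arrays above all controls. Within slide 2, which held 2 arrays of 6h_Cyt and 3 of 6h_Ctrl, the difference was 0.15, and it was 0.15 with slide as a block. The log2FC was 0.10 (-0.13 to 0.34) for miR-125a-5p and 0.040 (-0.26 to 0.34) for miR-99b-5p. The latter turned to -0.066 without replicate 1 of 6h_Ctrl. Across miRs that array correlated with the others of its group at r = 0.9845 and 0.9882, against 0.996 between those others. Here limma called 0 of 5 members and 0% of all miRs, and 1 of 5 members and 30 miRs had an unadjusted p below 0.05. The cytokine effect on miR-125b-5p at 24 h minus that at 6 h was 0.039 (SE 0.086, 95% interval -0.14 to 0.22), and it turned to -0.095 with slide as a block. In that term 0 of 5 members were called, against 0.528% of all miRs, with 0 members and 71 miRs at an unadjusted p below 0.05.

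With Givinostat present, the comparison 6h_Giv_Cyt vs 6h_Giv_Ctrl gave a log2FC of 0.14 (95% interval -0.099 to 0.37) for miR-125a-5p, -0.015 (-0.14 to 0.11) for miR-125b-5p and -0.064 (-0.37 to 0.24) for miR-99b-5p. The value of miR-125b-5p turned to 0.056 with slide as a block, and its shorter and longer probe gave 0.057 and -0.088. Calls by limma came to 0 of 5 members and 0% of all miRs, with 0 members and 26 miRs at an unadjusted p below 0.05. These groups shared no slide and each held an array that stood apart. Without replicate 3, the 6h_Giv_Cyt arrays read 6.91 and 6.93 for miR-125b-5p, against a 6h_Giv_Ctrl mean of 6.88. For miR-99b-5p they read 7.56 and 7.37, against 7.38, so both negative values turned. For miR-125a-5p they read 8.27 and 8.20, against 7.96, a larger difference.

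The effect of Givinostat itself was read without and with cytokines. In 6h_Giv_Ctrl vs 6h_Ctrl, miR-125a-5p and miR-99b-5p had log2FCs of -0.24 (SE 0.11, 95% interval -0.47 to -0.0011, adjusted p = 0.982 by limma) and -0.18 (SE 0.14, 95% interval -0.48 to 0.12), and miR-125b-5p -0.011 (-0.14 to 0.12). Replicate 1 of 6h_Giv_Ctrl lay among the control arrays for miR-125a-5p and at their upper end for miR-99b-5p, while the other arrays of that group lay below all controls for both. Within slide 2 (2 arrays against 3) the differences were -0.35 and -0.34, and with slide as a block the log2FCs were -0.28 and -0.26. With an array left out they lay between -0.34 and -0.17 and between -0.34 and -0.077. Both members were called, at -0.29 and -0.27, when the background-subtracted signal was scaled by its upper quartile among detected miRs (adjusted p = 0.0458 for each, and up to 1.00 under other alternatives). In that setting 26 of all miRs were called, and the median of the detected miRs was -0.065. Without normalization miR-125a-5p and miR-99b-5p were 0.11 and 0.12, where the median of the detected miRs was 0.24. In limma's test 0 of 5 members passed and 0% of all miRs, and 1 of 5 members and 34 miRs had an unadjusted p below 0.05.

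In 24h_Giv_Ctrl vs 24h_Ctrl the log2FC was 0.10 (95% interval -0.023 to 0.23) for miR-125b-5p, 0.033 (-0.20 to 0.27) for miR-125a-5p and -0.0085 (-0.31 to 0.29) for miR-99b-5p. The arrays overlapped for all 3. Within slide 4 (1 array against 3) the differences were 0.0020, 0.049 and -0.050, and with slide as a block the log2FCs were 0.099, 0.014 and -0.042. Here limma called 0 of 5 members and 0% of all miRs, with 0 members and 32 miRs at an unadjusted p below 0.05.

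In the presence of cytokines, 6h_Giv_Cyt vs 6h_Cyt gave negative values for all detected members. The log2FC was -0.16 for miR-125b-5p (SE 0.061, 95% interval -0.29 to -0.032, adjusted p = 0.926 by limma), and 3 of 3 arrays with Givinostat lay below all arrays without it. It was -0.28 (SE 0.14, -0.59 to 0.018) for miR-99b-5p and -0.20 (SE 0.11, -0.44 to 0.034) for miR-125a-5p, with overlapping arrays. Without replicate 3 of 6h_Giv_Cyt, which stood apart, miR-99b-5p was -0.13 and miR-125b-5p -0.098. For miR-125a-5p the other arrays of that group read 8.27 and 8.20, against a 6h_Cyt mean of 8.30. Its difference was thus much smaller without replicate 3 as well. The probes of miR-125b-5p differed, with -0.046 for the shorter and -0.27 for the longer. Calls by limma came to 0 of 5 members and 0% of all miRs, and 1 of 5 members and 24 miRs had an unadjusted p below 0.05. The median log2FC was -0.20 over the detected members and -0.029 over the 117 detected miRs. These groups shared no slide, and with slide as a block the values of miR-125b-5p, miR-99b-5p and miR-125a-5p were -0.14, -0.39 and -0.23.

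The same was asked at 24 h, again between groups that shared no slide. In 24h_Giv_Cyt vs 24h_Cyt the log2FC was -0.046 (95% interval -0.17 to 0.082) for miR-125b-5p, -0.0069 (-0.24 to 0.23) for miR-125a-5p and -0.16 (-0.46 to 0.15) for miR-99b-5p. The sign of the first pair turned under 4 alternatives each, slide as a block and array brightness as a covariate among them, and miR-99b-5p lay between -0.23 and -0.071 with an array left out. Of the 5 members, limma called 0, against 0.132% of all miRs, and 1 of 5 members (miR-100-5p, not well above background) and 38 miRs had an unadjusted p below 0.05. The mean Givinostat effect at 24 h was 0.029 (-0.061 to 0.12) for miR-125b-5p, 0.013 (-0.15 to 0.18) for miR-125a-5p and -0.082 (-0.30 to 0.13) for miR-99b-5p, and with slide as a block 0.086, 0.046 and -0.072. In that term 0 of 5 members were called and 0% of all miRs, with 1 of 5 members (miR-100-5p, not well above background) and 28 miRs at an unadjusted p below 0.05.

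Between 6 h and 24 h, the groups of miR-125a-5p did not overlap in 24h_Giv_Ctrl vs 6h_Giv_Ctrl. Its log2FC was 0.36 (SE 0.11, 95% interval 0.12 to 0.60), 3 of 3 arrays at 24 h lay above all arrays at 6 h, and the shorter and longer probe gave 0.27 and 0.45. By limma the adjusted p was 0.412. Without the arrays that stood apart, a setting chosen after seeing the data, the log2FC was 0.46 and the member was called (adjusted p = 0.00867, and up to 1 under other alternatives). In the same comparison the log2FC was 0.15 for miR-125b-5p (95% interval 0.021 to 0.28) and 0.17 (-0.14 to 0.47) for miR-99b-5p. With an array left out miR-125b-5p lay between 0.091 and 0.20, and under other alternatives between 0.038 and 0.42. Without replicate 1 of 6h_Giv_Ctrl, that group read 7.26 and 7.17 for miR-99b-5p. The 24h_Giv_Ctrl mean was 7.54, so the difference of miR-99b-5p was larger without that array. Here limma called 0 of 5 members and 0% of all miRs, and 2 of 5 members and 30 miRs had an unadjusted p below 0.05. These groups shared no slide, and with slide as a block the values of miR-125a-5p, miR-125b-5p and miR-99b-5p were 0.39, 0.22 and 0.12.

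In 24h_Giv_Cyt vs 6h_Giv_Cyt the groups of miR-125b-5p did not overlap, with a log2FC of 0.19 (SE 0.061, 95% interval 0.058 to 0.31, adjusted p = 0.274 by limma) and 3 of 3 arrays at 24 h above all arrays at 6 h. Within slide 3 (1 array against 3) the difference was 0.094, and with slide as a block the log2FC was 0.19. The probes differed, with 0.051 for the shorter and 0.32 for the longer. It was called when the background-subtracted signal was scaled to the detected miRs (adjusted p = 0.0461) and without normalization (adjusted p = 0.0439), and under other alternatives its adjusted p reached 0.943. Scaling to the detected miRs and no normalization each called 21 of all miRs. With an array left out miR-125b-5p lay between 0.12 and 0.23. The log2FC was 0.13 (-0.11 to 0.36) for miR-125a-5p and 0.070 (-0.23 to 0.37) for miR-99b-5p. Without replicate 3, which stood apart, the 6h_Giv_Cyt arrays read 8.27 and 8.20 for miR-125a-5p, against a 24h_Giv_Cyt mean of 8.22. For miR-99b-5p they read 7.56 and 7.37, against 7.38. Both positive values thus turned without that array, that of miR-125a-5p by very little. Among the members, limma called 0 of 5, against 0.396% of all miRs, and 1 of 5 members and 67 miRs had an unadjusted p below 0.05.

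Time was also compared without Givinostat. In 24h_Cyt vs 6h_Cyt the log2FC was 0.072 (95% interval -0.056 to 0.20) for miR-125b-5p, -0.066 (-0.30 to 0.17) for miR-125a-5p and -0.059 (-0.36 to 0.24) for miR-99b-5p. Within slide 2 (1 array against 2) these were -0.0014, -0.035 and -0.025, and with slide as a block they were -0.025, -0.16 and -0.19, so the sign of miR-125b-5p turned in both. Of the 5 members, limma called 0, against 0.792% of all miRs, and 1 of 5 members (miR-100-5p) and 104 miRs had an unadjusted p below 0.05. Without normalization between arrays 3 members were called, with log2FCs of 0.68, 0.75 and 0.66, so the sign of miR-125a-5p and miR-99b-5p turned, where the median of the detected miRs was 0.69. Of all miRs 122 were called in that setting. In 24h_Ctrl vs 6h_Ctrl the log2FC was 0.032 (-0.095 to 0.16) for miR-125b-5p, 0.091 (-0.14 to 0.33) for miR-125a-5p and -0.0057 (-0.31 to 0.30) for miR-99b-5p. These groups shared no slide, and with slide as a block the values were 0.070, 0.092 and -0.096. Here limma called 0 of 5 members and 0% of all miRs, with 0 members and 39 miRs at an unadjusted p below 0.05.

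Averaged over the 4 treatments, the difference between 24 h and 6 h was 0.11 for miR-125b-5p (SE 0.030, 95% interval 0.046 to 0.17, adjusted p = 0.0781 by limma). This was the smallest adjusted p of any detected member in the 18 comparisons and terms, and the value was also below the log2FC threshold. For miR-125a-5p the mean difference was 0.13 (SE 0.056, 95% interval 0.011 to 0.25, adjusted p = 0.378) and for miR-99b-5p 0.043 (95% interval -0.11 to 0.19), which turned to -0.015 with slide as a block. In this term 0 of 5 members were called, against 0.264% of all miRs, and 2 of 5 members and 87 miRs had an unadjusted p below 0.05. With array brightness as a covariate the value of miR-125b-5p was 0.044, and without normalization it was 0.32 and called (adjusted p = 0.0172, and up to 0.780 under other alternatives). Without normalization 21 of all miRs were called in this term. With an array left out the adjusted p of miR-125b-5p lay between 0.0356 and 0.166, with values of 0.094 to 0.12, below the log2FC threshold.

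**Figure D3:**
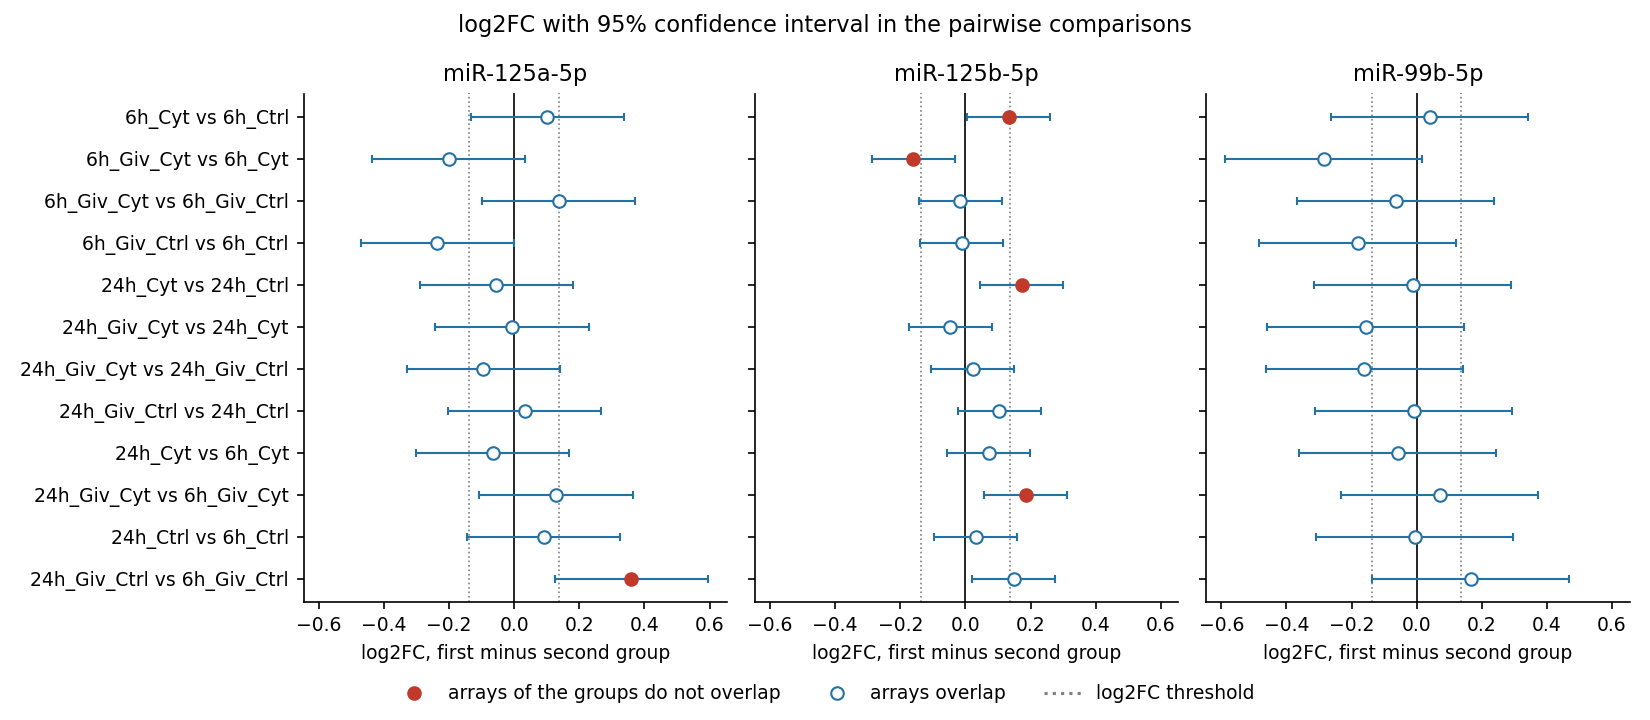
log2FC (horizontal axis, first-named minus second group) with its 95% confidence interval for the 12 pairwise comparisons (vertical axis) in miR-125a-5p, miR-125b-5p and miR-99b-5p; dotted lines mark the log2FC threshold, and filled points are comparisons in which the arrays of the groups did not overlap. There are 5 filled points, 4 of them for miR-125b-5p, and 0 of the 36 tests passed the adjusted p threshold. The share of other miRs without overlap was not counted.

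The let-7 miRs that share the clusters, which are known as regulators of differentiation, were well above background on all 24 arrays and could be followed beside the members. In 24h_Ctrl, let-7c-5p read 10.28, 10.48 and 10.25 (10.33 ± 0.12, SD, n = 3), and in 24h_Cyt its arrays lay between 9.85 and 10.01 (9.95 ± 0.091), all below the controls. By limma its log2FC was -0.38 (SE 0.11, adjusted p = 0.0449), so it was called lower in 24h_Cyt in the normalized data. Without normalization the value was 0.62, below the 0.83 of the median detected miR. The paper used let-7c as an internal control for part of its PCR after testing its stability under cytokines. It describes let-7c as stable by PCR in rat islets, at other cytokine doses than here. Its PCR of INS1 cells treated similarly to the arrays was normalized to other miRs. The call was lost in 15 of the 24 fits that left out 1 array, with an adjusted p of up to 0.188 without replicate 2 of 24h_Cyt, and with the pooled correlation (adjusted p = 0.239). The call was also lost with slide as a fixed block (log2FC -0.56, adjusted p = 0.448 by limma) or a random block (-0.39, 0.0723). Array brightness as a covariate (-0.60, 0.106) and removal of outlier spots (-0.40, 0.0977) lost it as well. So did the median over spots and the authors' deposited log2 table (-0.38 and 0.0729 in each), and scaling to all miRs (-0.70, 0.952). Without slide 1 the log2FC was -0.32. In these fits the value stayed negative. Over all alternatives its adjusted p ranged from 0.000611 to 0.952. These groups share no slide, so cytokines, slide and brightness cannot be told apart for let-7c-5p either. Its cluster partner miR-125b-5p had a log2FC of the opposite sign (0.17), and miR-99a-5p was not well above background. Whether cluster partners differ from each other was not tested.

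On chromosome 1, let-7e-5p lies between miR-99b-5p and miR-125a-5p. It read 9.56, 9.64 and 9.49 in 24h_Ctrl (9.56 ± 0.074, SD, n = 3) and 9.24, 9.01 and 9.14 in 24h_Cyt (9.13 ± 0.12), without overlap. Its log2FC was -0.43 (SE 0.14, 95% interval -0.72 to -0.14, adjusted p = 0.0716 by limma), against -0.013 and -0.055 for its neighbours, whose arrays overlapped. It was called in 5 of the alternatives, the pooled correlation among them (adjusted p = 0.0194, range 0.00932 to 0.976), and was 0.61 without normalization. On chromosome 8, let-7a-5p had a log2FC of -0.15 (95% interval -0.34 to 0.043, adjusted p = 0.334), and between -0.21 and -0.062 with an array left out. It was called at -0.49 with the background-subtracted signal scaled to the detected miRs (adjusted p = 0.0247) and at 0.76 without normalization (adjusted p = 0.0393), and under other alternatives its adjusted p reached 1. Scaling to the detected miRs called 65 of all miRs and no normalization 173. In 24h_Giv_Cyt vs 24h_Giv_Ctrl the log2FCs were -0.15 (-0.38 to 0.078) for let-7c-5p, -0.16 (-0.46 to 0.13) for let-7e-5p and -0.093 (-0.29 to 0.10) for let-7a-5p.

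The arrays of 6h_Giv_Ctrl and 6h_Giv_Cyt that stood apart did so in the same direction for the let-7 partners. Replicate 1 of 6h_Giv_Ctrl was 0.49 above the rest of its group for let-7e-5p, 0.43 for let-7c-5p and 0.15 for let-7a-5p on the log2 scale. Replicate 3 of 6h_Giv_Cyt was -0.42, -0.38 and -0.43 from the rest of its own. In 24h_Giv_Ctrl vs 6h_Giv_Ctrl, let-7e-5p had a log2FC of 0.47 (SE 0.14, 95% interval 0.18 to 0.76, adjusted p = 0.397 by limma), beside 0.36 for miR-125a-5p of the same cluster.

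**Figure D4:**
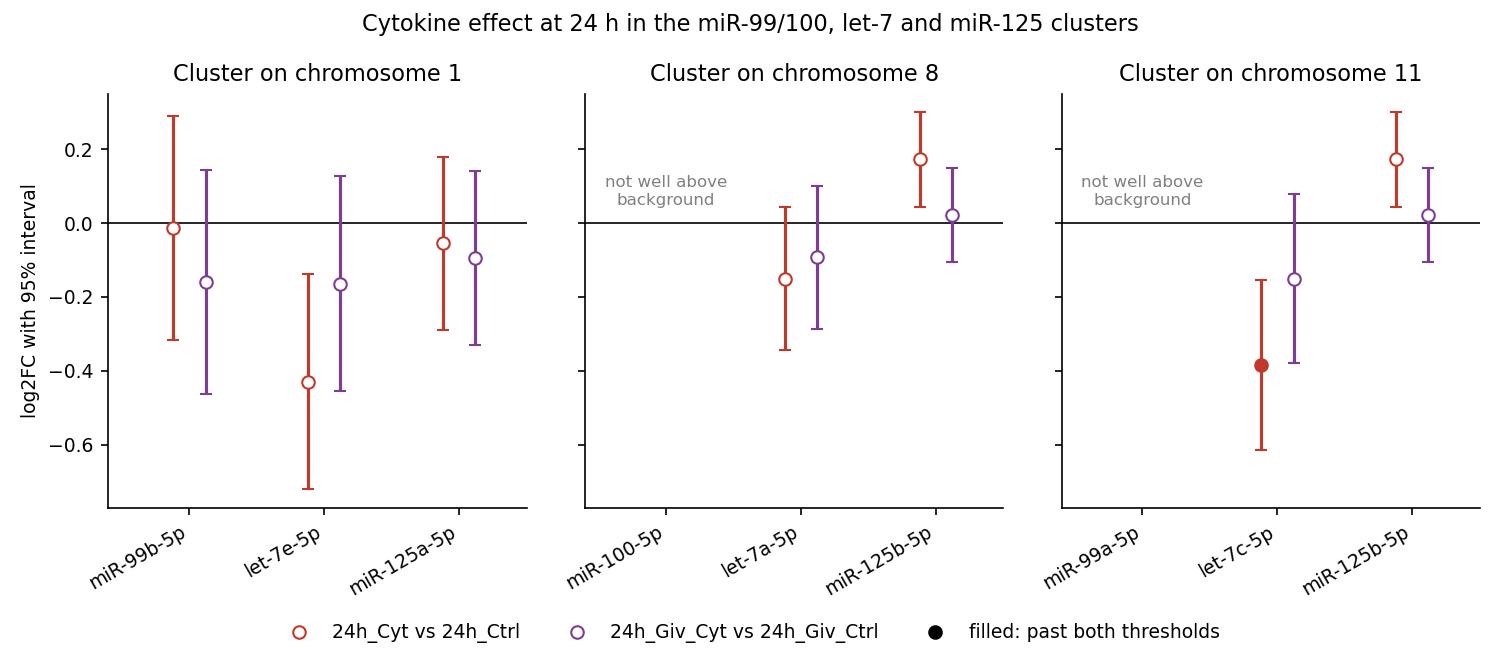
log2FC with 95% confidence interval (vertical axis) for the miR-99/100, let-7 and miR-125 members of the clusters on chromosomes 1, 8 and 11, with cytokines at 24 h without and with Givinostat; miR-125b-5p is drawn in both clusters that hold its hairpins. The filled point, let-7c-5p in 24h_Cyt vs 24h_Ctrl at -0.38, is the value that passed both thresholds; it is 0.62 without normalization between arrays.

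The miRs whose pattern over the 8 group means was most like that of a member were sought among those well above background on all 24 arrays. For miR-125b-5p these were miR-130a-3p (Pearson r = 0.958), miR-30a-5p (0.805) and miR-106b-5p (0.805). For miR-125a-5p they were miR-183-5p (0.857), miR-98-5p (0.835), which is a let-7 family miR, and miR-344a-3p (0.814). For miR-99b-5p they were miR-15b-5p (0.936), miR-183-5p (0.903) and miR-151-5p (0.884). Each r was picked as among the 3 highest of 116 candidates. It rests on 8 group means that share arrays, slides and normalization, and it describes these arrays only.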

How the data were processed

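The authors deposited scanner files with the intensity of each spot on a linear scale, not normalized between arrays; their headers name Feature Extraction 10.7.3.1. They also deposited a table of log2 values per miR, whose column medians lay between 5.52 and 5.54; it matches the median of a miR's spots after the steps below.

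The median foreground intensity of every spot other than controls was used with no background subtraction. It was quantile-normalized across arrays, put on the log2 scale and averaged over the 16 spots of each of the 758 miRs. limma 3.58.1 (R 4.3.3) was fitted to these array means with a mean for each of 8 groups. This replaces the pooled correlation over spots of the study's methods, since spots of an array share their RNA. The fit was tested on simulated data. The 12 pairwise comparisons and 6 further terms were tested. The members, the related miRs and the marker lists were chosen with earlier results of these data known. Besides the members, the miRs named are the other strands, let-7 partners, miRs with the same seed or of the miR-10 family, markers, miR-146a-5p, and the 3 miRs most like each member. Groups of 3 arrays limit the precision of every estimate. No spot was saturated.

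Of 19 alternatives, 4 were chosen after seeing the data (array brightness as a covariate, log2 before quantile normalization, removal of spots marked as outliers, and removal of the arrays that stood apart), and each of the 24 arrays was left out in turn. The median over spots and the deposited table hold the same values but are counted as separate alternatives.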

Additional observations from a re-analysis of the deposited data

Results flagged for a closer look

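Of the 5 members, 0 passed limma's test for a cytokine effect that differs between 24 h and 6 h, or between cells with and without Givinostat. Of the other miRs named, miR-146a-5p passed the test for time: on the log2 scale, the signal differed between cytokine-treated and control arrays by 0.43 more at 24 h than at 6 h (SE 0.046, adjusted p = 2.12e-05). It was well above background on 6 of the 24 arrays, so no fold is read from this value.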

How the results depend on the processing

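The counts of members called were 0 in the reported fit. They held in 330 of the 342 fits with other settings and in all 432 with an array left out. For a pairwise comparison most of the latter left out an array outside its groups. Such fits could change it only through normalization and the shared spread. Without normalization between arrays 3 members were called for the mean cytokine effect at 24 h, 3 for 24h_Cyt vs 24h_Ctrl, and likewise 3 when 24h_Cyt was set against 6h_Cyt. In the same setting 1 member was called for the mean of 24 h minus 6 h, for 24h_Giv_Cyt vs 24h_Giv_Ctrl, and when 24h_Giv_Cyt was set against 6h_Giv_Cyt. There 21, 323 and 21 of all miRs were called. With the processed signal scaled to the detected miRs 2 members were called in 6h_Giv_Ctrl vs 6h_Ctrl and 1 in 24h_Giv_Cyt vs 6h_Giv_Cyt. Of all miRs 26 and 21 were called there. In 24h_Cyt vs 24h_Ctrl 1 member was called with the groups compared alone. Without the pair of arrays that stood apart, 1 was called there and 1 in 24h_Giv_Ctrl vs 6h_Giv_Ctrl. With no log2FC threshold 1 (miR-100-5p) was called for the mean cytokine effect at 24 h.

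The counts of log2FCs here cover all members in 24h_Cyt vs 24h_Ctrl, 24h_Giv_Cyt vs 24h_Giv_Ctrl, 24h_Giv_Cyt vs 24h_Cyt and 6h_Cyt vs 6h_Ctrl, the let-7 partners in the first of these, and single members in other comparisons. Log2FCs not counted also changed sign, such as those of miR-125a-5p (0.75) and miR-99b-5p (0.66) in 24h_Cyt vs 6h_Cyt and both (0.67, 0.64) in the mean cytokine effect at 24 h, without normalization. Of those counted, under other settings 27 changed sign, 474 kept their sign and call, 16 became called, 9 lost a call, and 24, of miRs not well above background, moved. The cause was not tested.

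Without normalization the sign turned in 24h_Cyt vs 24h_Ctrl for miR-125a-5p (0.98), miR-99b-5p (0.95), let-7c-5p (0.62), let-7e-5p (0.61) and let-7a-5p (0.76). It also turned in 24h_Giv_Cyt vs 24h_Giv_Ctrl for miR-125a-5p (0.36) and miR-99b-5p (0.33), and in 6h_Giv_Ctrl vs 6h_Ctrl for miR-125a-5p (0.11) and miR-99b-5p (0.12).

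With the median over spots, and in the deposited table, miR-99b-5p was 0.0099 in 24h_Cyt vs 24h_Ctrl and miR-125b-5p -0.023 in 24h_Giv_Cyt vs 24h_Giv_Ctrl. The latter was -0.37 with scaling to all miRs, where miR-99b-5p was -0.0083 in 6h_Cyt vs 6h_Ctrl. With brightness as a covariate miR-125b-5p was -0.079 in 24h_Cyt vs 24h_Ctrl, and -0.067 with Givinostat present in 24h_Giv_Cyt vs 24h_Giv_Ctrl, and miR-99b-5p -0.021 in 6h_Cyt vs 6h_Ctrl. Without outlier spots miR-125b-5p was -0.065 in 24h_Giv_Cyt vs 24h_Giv_Ctrl.

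In 24h_Giv_Cyt vs 24h_Cyt the sign of miR-125a-5p and miR-125b-5p turned with brightness as a covariate (0.078, 0.058), scaling to detected miRs (0.018, 0.032) and slide as a fixed block (0.079, 0.073). It turned for miR-125a-5p without outlier spots (0.11) and for miR-125b-5p without slide 1 (0.015).

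With an array left out, 9 of the counted log2FCs changed sign, 718 kept their sign and call, 2 became called and 15 lost a call. Here too most of the arrays left out lay outside the groups compared. In 24h_Cyt vs 24h_Ctrl miR-125a-5p lay between -0.13 and 0.0048, miR-99b-5p between -0.080 and 0.047, let-7c-5p between -0.43 and -0.31 and let-7e-5p between -0.48 and -0.37. In 24h_Giv_Cyt vs 24h_Giv_Ctrl miR-125b-5p lay between -0.029 and 0.067, in 24h_Giv_Cyt vs 24h_Cyt miR-125a-5p between -0.070 and 0.084, and in 6h_Cyt vs 6h_Ctrl miR-99b-5p between -0.066 and 0.11.

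Replicate numbers gave no pairing over all groups: over 36 pairs of arrays with the same number, r of the deviations from the group means had a median of -0.031 and was above 0.1 in 18, and the own number fitted best in 24 of 72. For 24h_Ctrl with 24h_Cyt r was 0.665, 0.733 and 0.360. With replicate as a block miR-125b-5p was 0.17 there (adjusted p = 0.0815), and 0 members were called in any comparison. The fit on detected miRs alone gives no value for miR-99a-5p and miR-100-5p. Without slide 1 a lone 24h_Cyt array was assumed to vary like the other groups.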
